A study of Rattus norvegicus with 4 samples.

Results

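Of the 4942 circular RNAs (circRNAs) listed in rat sciatic nerve, 121 came from the genes of membrane transporters and ion channels, and these 121 circRNAs belonged to 81 of the 2327 host genes. A host gene is the gene whose transcript is back-spliced into the circle. Members were chosen by the symbol of their single host gene alone, with no measured value: solute carriers (Slc and a digit), ATPases (Atp and a digit), ATP-binding cassette (ABC) proteins (Abca to Abcg), potassium, calcium, sodium and chloride channels (Kcn, Cacn, Scn and a digit, Clcn), TRP channels (Trpc, Trpm, Trpv), anoctamins (Ano and a digit) and the calcium release channels of internal stores (Ryr, Itpr). The rule itself was set with earlier results of these data known. It goes by symbol, so it also took in genes that encode no transporter, among them Abce1, an ABC protein of ribosome recycling, and Slc4a1ap, which encodes an adaptor.

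The crush group held 2 libraries from Sprague-Dawley rats at postnatal week 6 whose sciatic nerve was squeezed 2 times over a length of 3 mm, for 15 s each with a pause of 3 s. The sham group held 2 libraries from rats of the same strain and age whose nerve was exposed and not crushed. The injured stretch and 1 mm of nerve on each side was collected 24 h after surgery, and the total RNA was sequenced. Nothing in the labels tells if replicates came from separate animals, so the p-values below measure only the spread between these libraries, which may be technical.

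A circRNA forms when a downstream splice donor is joined to an upstream splice acceptor, so that 1 or more exons close into a ring without free ends. Only reads that cross the back-splice junction count as circRNA reads, and these say nothing about the linear mRNA or the protein of the host gene. In peripheral nerve, transporters and channels set the ion gradients on which axons fire, feed Schwann cells with amino acids and lactate, and move lipids between the leaflets of membranes that are taken apart and rebuilt after injury. Whole nerve holds many cell types, and in such bulk samples fewer cells of a type and less circRNA per cell cannot be told apart.

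The libraries held 8250 and 9027 junction reads in crushed nerve and 9018 and 8726 in sham nerve, so that a host gene with a few reads is measured coarsely. The deposited signal, SRPBM, is the junction read count times 1 constant for the library, between 0.0598 and 0.0786 SRPBM per read. A listed count was 0 or at least 2, and a 0 means that the circle is absent from that library's calls. The labelled tissue could be checked only through circRNA hosts: 5 of 25 Schwann cell marker symbols gave circRNAs (Mbp, Pmp22, Ugt8, Cdh19 and Adgrg6), while Prx, Mag and Sox10 gave none. The 25 include Gpr126, a former symbol of Adgrg6. Among lists of other cell types, 15 of 30 leukocyte marker symbols were detected, with 85 and 88 reads in crushed nerve against 3 and 5 in sham nerve. Fyb and Fyb1, both without circRNAs, are symbols of the same gene. Of 30 skeletal muscle markers, 4 were detected (Mlip, Mybpc2, Myh1 and Neb), with 76 and 79 reads in crushed nerve against 209 and 239 in sham nerve. Mlip alone supplied all of the crush reads and 204 and 226 of the sham reads. Ttn and Ckm of the muscle list and Itgal and Itgax of the leukocyte list gave none. Fibroblast and perineurial markers (4 of 15) had 3 and 13 reads in crushed nerve against 28 and 20 in sham nerve, Schwann cell markers 6 and 4 against 13 and 16, and endothelial markers (4 of 15) 8 and 8 against 7 and 11. Mural cell and neuronal markers gave no circRNA, and of 10 adipocyte markers only Pparg did. The marker lists were chosen with earlier results of these data known, so these counts are no independent check of cell types. The part of these cell types in the values below was not tested.

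Transporter and channel hosts supplied a small and similar part of the circRNA pool in every library. Their junction reads numbered 172 and 197 in crushed nerve and 161 and 177 in sham nerve. As a share of all junction reads this was 2.08% (95% exact Clopper-Pearson interval 1.79% to 2.42%) and 2.18% (1.89% to 2.51%) in crushed nerve, and 1.79% (1.52% to 2.08%) and 2.03% (1.74% to 2.35%) in sham nerve. The intervals overlapped and cover counting error only. In SRPBM the sums were 12.1 ± 0.49 in crushed nerve and 12.8 ± 1.55 in sham nerve (SD, n = 2 each), a difference smaller than the spread between the sham libraries. Of the 121 circRNAs, 40 and 48 were called per crush library and 40 and 47 per sham library, from 29 and 42 hosts in crushed nerve and 36 and 39 in sham nerve.

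The reads were spread over many hosts. Of the 81 hosts, 42 were called in 1 library, 21 in 2, 10 in 3 and 8 in all 4, so 51.9% were seen once, and among the 2246 other hosts 51.6% were. The 8 hosts seen in every library (9.88%, beside 13.5% of other hosts) were Atp9b, Slc38a1, Abce1, Slc16a10, Abca1, Slc41a2, Ano4 and Slc10a7. For Abca1, Slc41a2 and Slc10a7 no single circle was called in all 4 libraries. The median host had 4 reads over the 4 libraries, the same as among other hosts, and 36 of the 81 had 2 or 3 reads in all.

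No transporter or channel host passed the test between crush and sham. The test was edgeR's quasi-likelihood test on junction reads summed per host, fitted over all 434 hosts with at least 5 reads in at least 2 libraries, with a threshold of 0.05 on the Benjamini-Hochberg adjusted p. It called 1.84% of all tested hosts higher in crushed nerve and 0.461% lower. Of the 81 hosts, 12 reached that read minimum, and 0 of the 12 were called in either direction by edgeR or by DESeq2, which called 5.99% of all tested hosts higher and 1.38% lower. The unadjusted p was under 0.05 for 1 of the 12, Slc25a16, in both tools, beside 25.6% of all tested hosts in edgeR. The 12 hosts had a median log2 change of -0.18 (crush minus sham), with 5 higher and 7 lower. All 434 tested hosts had a median of 0.11, with 232 higher and 202 lower.

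For 1 of the 12 tested hosts both crush libraries lay above both sham libraries in reads, beside 28.3% of all tested hosts, and for 5 of the 12 both lay below, beside 30.2%. The 5 were Slc38a1, Abce1, Slc38a9, Slc41a2 and Ano4, and none of their differences passed the test.

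**Figure D1:**
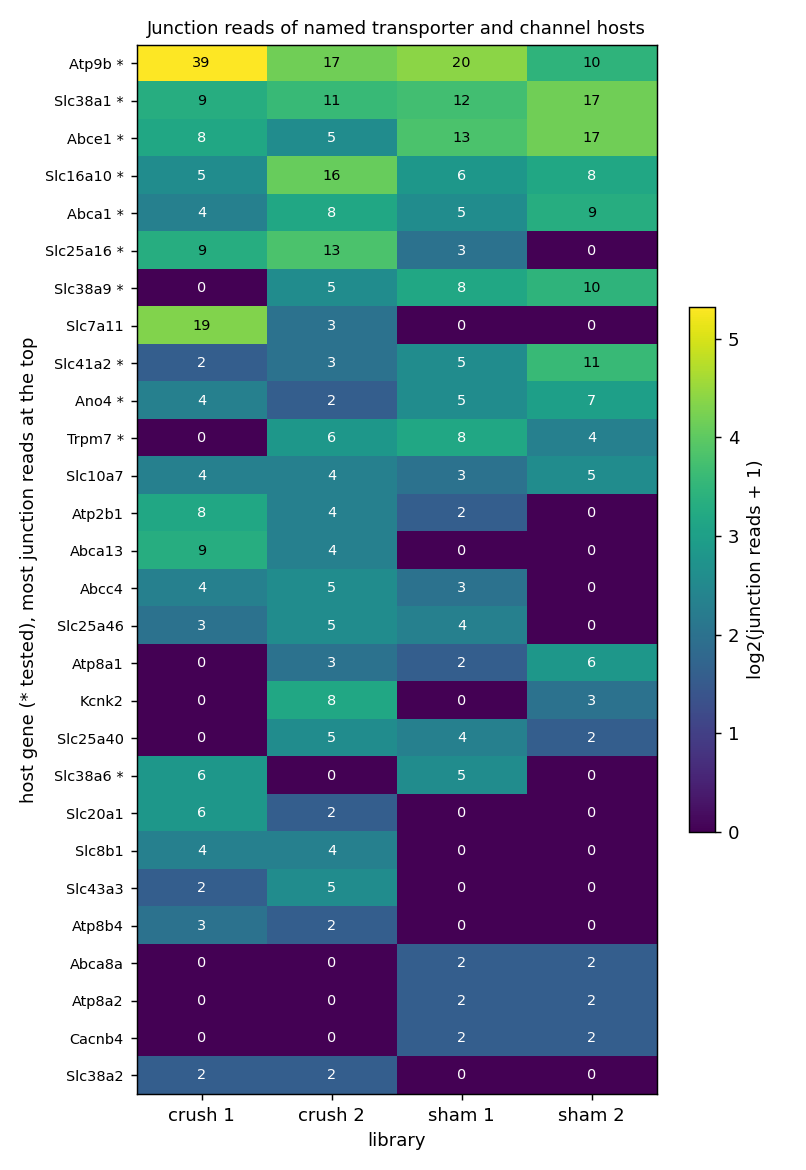
Junction reads of 28 named transporter and channel hosts (down the page, most reads at the top, an asterisk marks the 11 that were tested) in the 2 crush and the 2 sham libraries (across), coloured by log2(reads + 1) with the read count in each cell. Atp9b leads with 39 and 17 reads in crushed nerve and 20 and 10 in sham nerve, and Slc7a11 has 19 and 3 reads in crushed nerve and none in sham nerve.

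Hosts that carry amino acids were among the most read. Slc38a1, a sodium-coupled importer of glutamine and other neutral amino acids, had 9 and 11 reads in crushed nerve against 12 and 17 in sham nerve. Both crush libraries lay below both sham libraries, but the groups are 1 read apart. The log2 change was -0.33 ± 0.52 (SE derived from the F statistic of the edgeR test, adjusted p = 0.739). All its reads came from a single exonic circRNA on chromosome 7, 138002505 to 138021168 on the minus strand (Rnor_6.0, as for all positions here), the most read circRNA of the set.

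Slc38a9 encodes the lysosomal arginine sensor that signals to the growth kinase complex mTORC1. It had 0 and 5 reads in crushed nerve against 8 and 10 in sham nerve, 0.149 ± 0.211 against 0.685 ± 0.144 SRPBM (SD, n = 2 each). The sham libraries were both higher, and the log2 change was -1.62 ± 1.15 (adjusted p = 0.410), and -6.06 to -0.57 without 1 library. Its most read circRNA, on chromosome 2, 44554761 to 44564131, had 0 and 5 reads in crushed nerve against 8 and 4 in sham nerve, so at the level of this circle the groups overlapped. Slc38a6, an orphan carrier of the same family, showed the coarseness of the counts: it had 6 and 0 reads in crushed nerve against 5 and 0 in sham nerve, spread over 4 circRNAs.

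The 4 Slc38 hosts had 17 and 18 reads together in crushed nerve against 25 and 27 in sham nerve, or 1.15 ± 0.11 against 1.97 ± 0.21 SRPBM. Without Slc38a9 the groups met at 17 reads. They did not all differ in the same way. Slc38a2, which encodes a glutamine importer induced by amino acid shortage, had 2 and 2 reads in crushed nerve and none in sham nerve, and Slc38a6 gave similar values in both groups.

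Slc16a10, an exporter of aromatic amino acids, had 5 and 16 reads in crushed nerve against 6 and 8 in sham nerve, from 1 circRNA on chromosome 20, 45189472 to 45193661. Crush replicate 2 alone was high, the groups overlapped, and the log2 change was 0.76 ± 0.73 (adjusted p = 0.556).

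Slc7a11 had reads in crushed nerve only. It encodes the light chain of the cystine and glutamate exchanger xCT, which supplies cysteine for glutathione. It had 19 and 3 reads in crushed nerve and 0 and 0 in sham nerve, or 0.778 ± 0.847 against 0 SRPBM (SD, n = 2). Crush replicate 1 held most of the reads, and only 1 library reached 5 reads, so the host was not tested. Set against a floor of 3 reads in each sham library, its mean SRPBM was at least 3.43-fold higher in crushed nerve, a bound that holds only if a listed 0 means few reads. The bound rests on crush replicate 1, since crush replicate 2 by itself, with 3 reads, lies below the floor in SRPBM (0.789 of it). With no filter on low counts Slc7a11 was the 1 host of the 81 that passed (adjusted p = 0.0123, edgeR), beside 1.16% of all hosts called higher in that fit, and with at least 2 reads in 2 libraries it did not (adjusted p = 0.238).

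The Slc7a11 reads came from 3 exonic circRNAs on the minus strand of chromosome 2 that shared the downstream end, 139502624, and reached upstream to 139512448, 139520450 and 139523749. The middle one had 5 and 3 reads in crushed nerve, while the shortest had 8 and 0 and the longest 6 and 0. Only 1 of the 3 circles was thus seen in both crush libraries.

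Mitochondrial carriers held the 1 tested host whose crush libraries were both higher. Slc25a16, a carrier of the inner mitochondrial membrane linked to coenzyme A, had 9 and 13 reads in crushed nerve against 3 and 0 in sham nerve, or 0.715 ± 0.088 against 0.109 ± 0.155 SRPBM. Both crush libraries lay well above both sham libraries. The log2 change was 2.99 ± 1.07 (edgeR adjusted p = 0.143, and 0.0853 to 0.262 over the alternatives that tested it), and it ran from 2.01 to 6.47 without 1 sham library. The reads belonged to 1 exonic circRNA of 1372 bases on chromosome 20, 27278618 to 27279990.

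Fitted as a single circRNA, that of Slc25a16 had a log2 change of 3.00 ± 1.08 (adjusted p = 0.153). It passed in the circRNA fit without sham replicate 1 (adjusted p = 0.0210), in which the remaining sham library is at 0 and 19.4% of all tested circRNAs were called higher.

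The other carriers of the Slc25 family did not share this pattern. Slc25a46, an outer membrane protein of mitochondria whose human gene is mutated in optic atrophy with neuropathy, had 3 and 5 reads in crushed nerve against 4 and 0 in sham nerve. Slc25a40, which carries glutathione into mitochondria, had 0 and 5 against 4 and 2, over 4 circRNAs. Slc25a37, the iron importer mitoferrin, had 0 and 7 against 0 and 2, and was named after its values were seen. Each of the 3 had its groups overlapping. The 5 Slc25 hosts together had 12 and 30 reads in crushed nerve and 13 and 4 in sham nerve.

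Slc8b1, the sodium and calcium exchanger of mitochondria, had 4 and 4 reads in crushed nerve and none in sham nerve, and was not tested. Set against the floor of 3 reads used above, its mean was at least 1.16-fold higher, and at least 1.05-fold without crush replicate 1. As for Slc7a11, this bound holds only if a library without a call had few reads. The 2 circRNAs of Slc8b1 were each seen with 2 reads in both crush libraries.

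**Figure D2:**
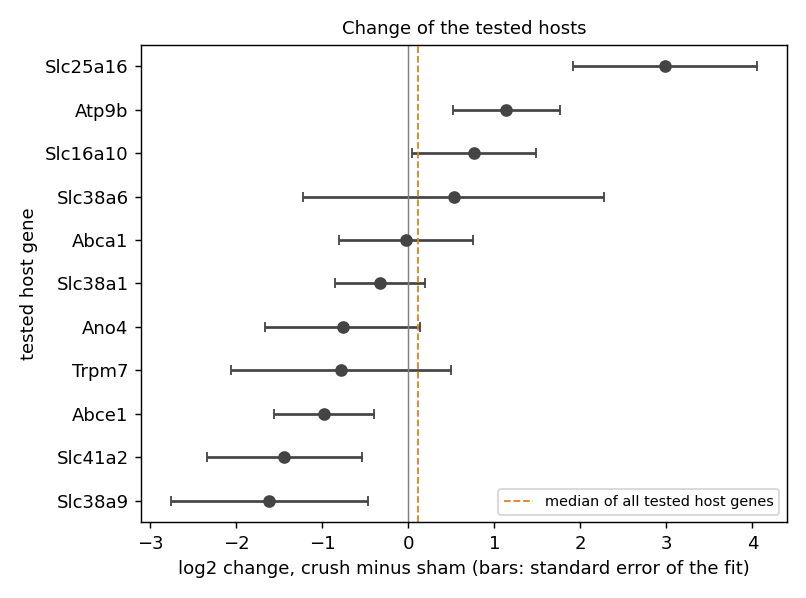
Log2 change in junction reads (crush minus sham, horizontal axis) of 11 of the tested transporter and channel hosts (vertical axis). Bars are a standard error derived from the F statistic of the edgeR test. The dashed line is the median of all 434 tested hosts, 0.11. Slc25a16 stands highest at 2.99 ± 1.07 and Slc38a9 lowest at -1.62 ± 1.15, and none passed the test.

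ATPases gave the most read host of the set. Atp9b, a member of the P4 ATPase family found at the trans-Golgi network, had 39 and 17 reads in crushed nerve against 20 and 10 in sham nerve, or 1.92 ± 1.28 against 1.12 ± 0.47 SRPBM. Crush replicate 1 was high, crush replicate 2 lay between the sham libraries, and the log2 change was 1.14 ± 0.62 (adjusted p = 0.293).

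Atp9b gave 4 exonic circRNAs on the minus strand of chromosome 18, all with the same upstream end, 77520779. The shortest, from 77512807, spans 7972 bases and had 23 and 10 reads in crushed nerve against 8 and 4 in sham nerve. Both crush libraries lay above both sham libraries for this circle, with a log2 change of 1.67 ± 0.63 and an edgeR adjusted p = 0.168. In SRPBM the closest libraries were nearly level, at 0.598 in crush replicate 2 and 0.583 in sham replicate 1. A longer one, from 77477060, spans 43719 bases and had 10 and 7 reads against 12 and 6. For this circle the groups overlapped (log2 change 0.15 ± 0.55, adjusted p = 0.918). The other 2, from 77466020 and 77484239, each had 3 reads in crush replicate 1 and none elsewhere.

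The short circle made up 69.7% (95% exact interval 51.3% to 84.4%) and 58.8% (32.9% to 81.6%) of the reads of these 2 circles in crushed nerve, against 40.0% (19.1% to 63.9%) and 40.0% (12.2% to 73.8%) in sham nerve. The difference of 24.3 percentage points had a two-sided exact permutation p = 0.333, the smallest that 2 against 2 can give, and the intervals of single libraries overlap. This ratio was chosen after its values were seen.

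**Figure D3:**
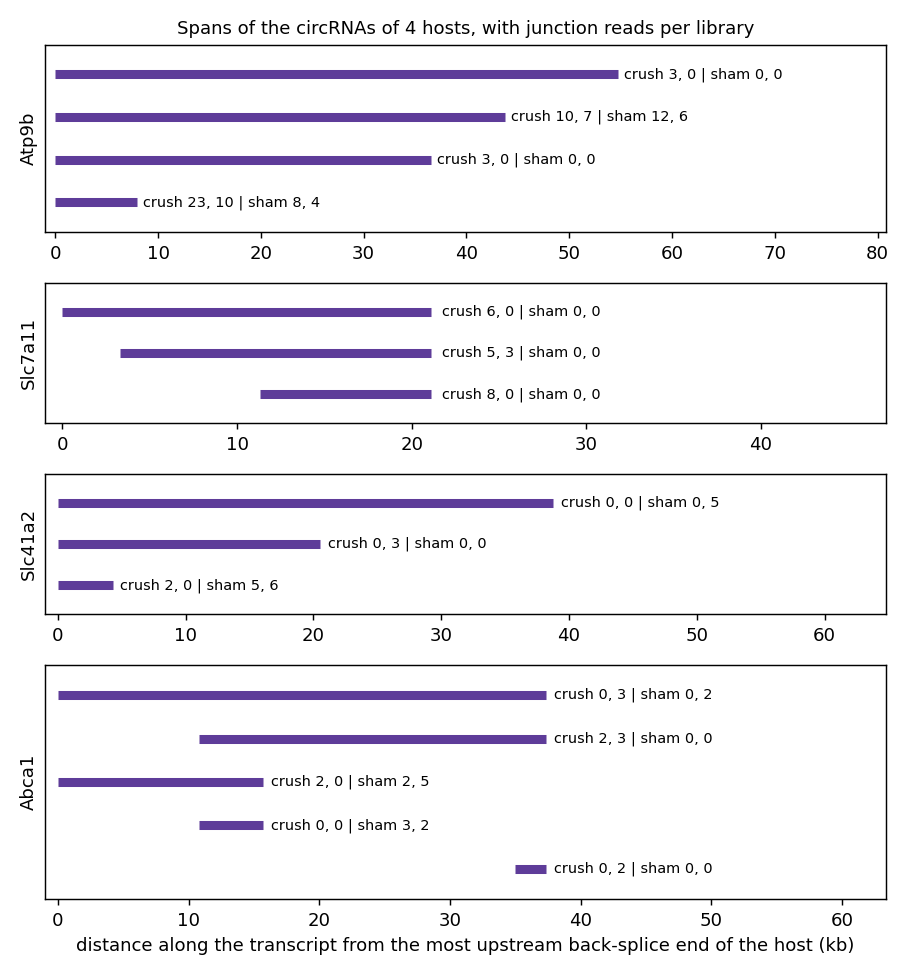
Spans of the circRNAs of Atp9b, Slc7a11, Slc41a2 and Abca1 along the direction of transcription, in kb from the most upstream back-splice end listed for each host, with the junction reads of crush replicates 1 and 2 and sham replicates 1 and 2 beside each bar. All 4 circles of Atp9b begin at the same upstream end, the 3 of Slc7a11 stop at the same downstream end, and the 5 of Abca1 combine a few ends in several ways.

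Flippases move phospholipids such as phosphatidylserine to the inner leaflet of a membrane, and the 7 P4 hosts had 42 and 25 reads in crushed nerve and 27 and 21 in sham nerve. Without Atp9b the remaining counts were small. Atp8a1 had 0 and 3 reads in crushed nerve against 2 and 6 in sham nerve. Atp8b4 had 3 and 2 in crushed nerve and none in sham nerve, while Atp8a2, a flippase known from neurons, had none in crushed nerve and 2 and 2 in sham nerve.

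Ion pumps were read at a low level. Atp2b1, the calcium pump that clears calcium from the cytosol, had 8 and 4 reads in crushed nerve against 2 and 0 in sham nerve. Both crush libraries were above both sham libraries, but only 1 library reached 5 reads and the host was not tested. Its 8 reads in crush replicate 1 came from a circle of 439 bases that was seen nowhere else. The 4 hosts with an Atp6 symbol, mostly subunits of the vacuolar proton pump, had 0 and 7 reads in crushed nerve and 0 and 10 in sham nerve.

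ABC hosts were lower in reads in both crush libraries, at 28 and 30 against 38 and 34 in sham nerve, or 1.91 ± 0.17 against 2.72 ± 0.07 SRPBM. This rested on single hosts: without Abce1 the others had 20 and 25 reads in crushed nerve against 25 and 17 in sham nerve, which overlap, and without Abcd3 the closest libraries of the groups were level at 30. Abce1, the ribosome recycling factor, had 8 and 5 reads in crushed nerve against 13 and 17 in sham nerve, from 1 circRNA on chromosome 19, 31878182 to 31886209. Both crush libraries were lower, and the log2 change was -0.98 ± 0.58 (adjusted p = 0.345).

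Abca1, the pump that hands cholesterol to apolipoprotein A-I, had 4 and 8 reads in crushed nerve against 5 and 9 in sham nerve, a log2 change of -0.030 ± 0.78 (adjusted p = 0.982). Its host total hid a mix of circles, the most of any host in the set. The 3 with the downstream end 69929580 (chromosome 5, minus strand) had 2 and 8 reads in crushed nerve against 0 and 2 in sham nerve, so the groups met at 2 reads. The 2 with the downstream end 69951194 had 2 and 0 against 5 and 7. Grouped by upstream end, the circles did not separate crush from sham. The 2 with the upstream end 69956147 had 2 and 3 reads in crushed nerve against 3 and 2 in sham nerve. The 2 with the upstream end 69966907 had 2 and 3 against 2 and 7. No Abca1 circle reached the read minimum, so these were not tested.

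Abca13, one of the largest ABC proteins, had 9 and 4 reads in crushed nerve and none in sham nerve, at least 1.96-fold higher on the floor used above, and at least 1.05-fold without crush replicate 1. Its circle on chromosome 14, 89675405 to 89714916, gave 5 and 4 of those reads, and the other 2 circles were seen in crush replicate 1 alone. Abcc4, an exporter of cyclic nucleotides and drugs, had 4 and 5 reads in crushed nerve against 3 and 0 in sham nerve. Both crush libraries were above both sham libraries, by a single read at the closest. Abcd3, an importer of fatty acids into peroxisomes, had no reads in crushed nerve and 8 and 0 in sham nerve, and was named after its values were seen. With the same floor in each crush library, its mean was at least 1.47-fold lower in crushed nerve. That bound rests on sham replicate 1 alone, and the groups overlapped. Abca8a had no reads in crushed nerve and 2 and 2 in sham nerve, from circles at other positions than that of its paralog Abca8; whether reads could be split between the 2 genes was not tested.

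Carriers of magnesium, phosphate and nucleobases gave these counts. Slc41a2, a magnesium transporter, had 2 and 3 reads in crushed nerve against 5 and 11 in sham nerve, or 0.162 ± 0.024 against 0.615 ± 0.354 SRPBM. Both crush libraries were lower, and the log2 change was -1.44 ± 0.90 (adjusted p = 0.358). Of its 3 circles, which share the upstream end 26522315 on chromosome 7, the shortest had 2 and 0 reads against 5 and 6. Its log2 change was -2.12 ± 1.07 (adjusted p = 0.286), and -5.42 to -1.04 without 1 crush library. Without 1 of the sham libraries it fell below the read minimum. The 5 reads that set sham replicate 2 apart came from the longest circle, seen in that library alone.

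Slc20a1, a sodium-coupled phosphate importer, had 6 and 2 reads in crushed nerve and none in sham nerve. Its mean was at least 1.22-fold higher, which rests on crush replicate 1, since crush replicate 2 lies below the floor. Slc43a3, a purine base transporter, had 2 and 5 in crushed nerve and none in sham nerve. In both genes the 2 crush libraries showed different circles. Slc10a7, a relative of the bile acid carriers, had 4 and 4 reads in crushed nerve against 3 and 5 in sham nerve, so its groups overlapped.

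In all, 8 of the 81 hosts (9.88%) were called in both crush libraries and in no sham library, beside 6.27% of all hosts, and 3 (3.70%) in both sham libraries and no crush library, beside 4.94%. The 8 included Slc7a11, Abca13, Slc20a1, Slc8b1, Slc43a3, Atp8b4 and Slc38a2, and the 3 were Atp8a2, Abca8a and Cacnb4. In 4 of the 8 a same circRNA was seen in both crush libraries, and in the other 4 each library showed a circle of its own. Among all 146 hosts of this kind a same circRNA was seen in 81 (55.5%). Of the 3 hosts seen only in sham nerve, 1 had a same circRNA in both sham libraries (33.3%), beside 63.5% of all 115 such hosts. In Atp8a2 and Abca8a each sham library showed a circle of its own. Leukocyte markers, with 85 and 88 reads in crushed nerve and 3 and 5 in sham nerve, moved in the same direction as the 8 hosts. That marker list was chosen with earlier results of these data known. The part of leukocytes in the counts of the 8 hosts was not tested.

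Channel hosts had fewer junction reads in both crush libraries than in either sham library. The 17 channel hosts had 8 and 22 reads in crushed nerve against 25 and 35 in sham nerve, or 0.948 ± 0.520 against 2.29 ± 0.66 SRPBM (SD, n = 2 each). Crush replicate 2 lay 3 reads below sham replicate 1, so that without Ano4 the groups met at 20 reads, and without Trpm3 at 22. Only Trpm7 and Ano4 were tested, and neither passed. Markers of muscle (almost all Mlip), Schwann cells and fibroblasts were also lower in both crush libraries, and their part in these sums was not tested.

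Trpm7 encodes a channel for magnesium and calcium fused to a kinase. It had 0 and 6 reads in crushed nerve against 8 and 4 in sham nerve, and the groups overlapped (log2 change -0.78 ± 1.28, adjusted p = 0.755). Its circRNA on chromosome 3, 119264196 to 119265879, was the only one of the gene.

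Ano4, of the anoctamin family of chloride channels and lipid scramblases, had 4 and 2 reads in crushed nerve against 5 and 7 in sham nerve. Both crush libraries were lower by at least 1 read, and the log2 change was -0.76 ± 0.90 (adjusted p = 0.652). Its most read circRNA spans 20225 bases of chromosome 7, 29603869 to 29624094, and had 4 and 2 reads against 5 and 5.

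Channels of excitable membranes were at the edge of detection. Kcnk2, the mechanosensitive background potassium channel TREK-1, had 0 and 8 reads in crushed nerve against 0 and 3 in sham nerve. Cacnb4, an auxiliary subunit of voltage-gated calcium channels, had none in crushed nerve and 2 and 2 in sham nerve. Scn10a, the sodium channel NaV1.8 of pain-sensing neurons, had 2 and 0 reads in crushed nerve against 2 and 3 in sham nerve. Scn10a was named after its values were seen. The 9 potassium, calcium and sodium channel hosts together had 2 and 12 reads in crushed nerve and 7 and 15 in sham nerve. Ryr1, the calcium release channel of skeletal muscle, had 0 and 2 reads in crushed nerve and none in sham nerve (also named after its values were seen), while the muscle markers were lower in crushed nerve as given above.

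**Figure D4:**
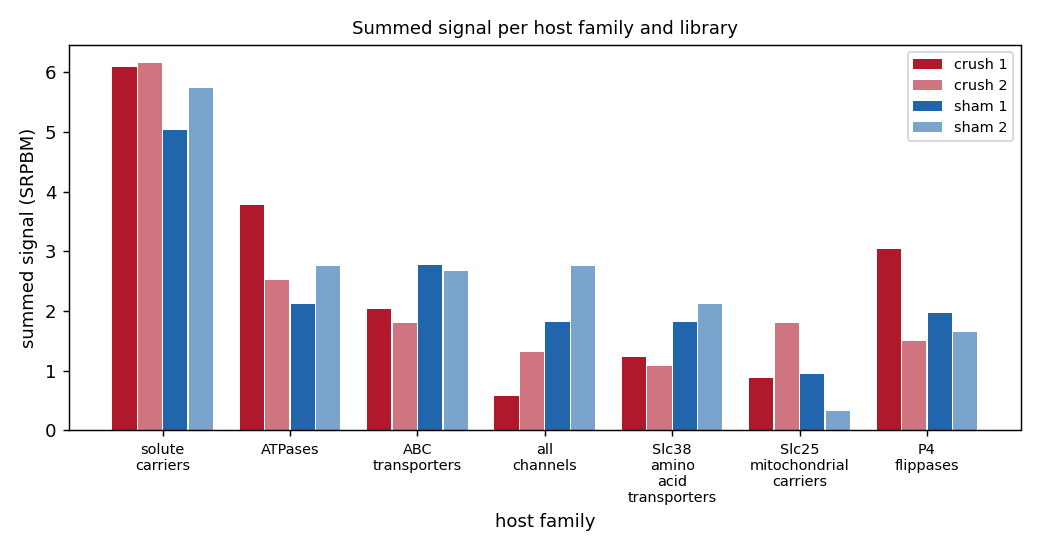
Summed signal in SRPBM (vertical axis, from 0) of host families (horizontal axis), with 1 bar per library, red for crush and blue for sham. Channels lie at 0.580 and 1.32 SRPBM in crushed nerve and at 1.82 and 2.75 in sham nerve, ABC hosts are lower in both crush libraries only with Abce1 included, and ATPases overlap between the groups. The Slc38 and Slc25 hosts are part of the solute carriers and the P4 flippases part of the ATPases.

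By family, the 36 solute carrier hosts supplied 46.5% of the junction reads of the set, the 16 ATPases 22.3%, the 12 ABC hosts 18.4% and the 17 channels 12.7%. Solute carriers had 84 and 103 reads in crushed nerve against 69 and 73 in sham nerve, or 6.12 ± 0.05 against 5.38 ± 0.51 SRPBM, and without Slc7a11 65 and 100 reads against 69 and 73, which overlap. ATPases had 52 and 42 reads against 29 and 35, so both crush libraries were higher in reads. In SRPBM they had 3.14 ± 0.89 against 2.43 ± 0.45, and there the groups overlapped. Without Atp9b the reads were 13 and 25 against 9 and 25, which overlap too. These sums are descriptions with no test.

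At the level of single circRNAs, 11 of the 121 reached the read minimum, and 0 of the 11 passed the edgeR test or DESeq2, while edgeR called 7.48% of all 428 tested circRNAs higher and 4.44% lower, and DESeq2 5.37% and 1.64%. The unadjusted p was under 0.05 for 2 of the 11, those of Slc25a16 and the short Atp9b circle, in both tools (27.8% of all tested circRNAs in edgeR). In 2 of the 11 both crush libraries lay above both sham libraries, beside 25.5% of all tested circRNAs, and in 4 both lay below, beside 29.2%. In all 4 libraries 6 of the 121 circRNAs were called, beside 252 of the 4086 other circRNAs with 1 host. The 6 were those of Slc38a1, Abce1 and Slc16a10, the main one of Ano4, and the short and the 43719-base circle of Atp9b.

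The circles of the set were built like those of other genes in most measures. Of the 121, 115 were exonic and 6 intronic, and 88.5% of the 4086 other circRNAs with 1 host were exonic. Their median genomic span, which includes introns, was 8441 bases (quartiles 4189 and 20521), against 8532.5 bases (3148.75 and 19324) for the others. The spans ran from 179 bases in Slc4a4, a bicarbonate cotransporter, to 89195 bases in Trpm3, a TRP channel, each circle seen in a single library. These 2 hosts were named after their spans were seen. A host had 1.49 circRNAs on average, against 1.82, and 73.6% of the circles were called in 1 library, against 72.4%. Among the 25 hosts with 2 or more circles, 18 (72.0%) had circles that shared a back-splice end, against 66.3% of the 880 such hosts in the series. These are descriptions with no test.

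Genes that act on transporters, or channels outside the symbol rule, were few. Of 62 other channel genes, 7 gave circRNAs (among them Grik1, Grik2, Nalcn, P2rx7, Piezo2 and Vdac2), with 4 and 4 reads in all in crushed nerve against 8 and 10 in sham nerve, and none was tested. Without Piezo2 the groups of this sum met at 4 reads. Of 45 regulators of transport, 12 gave circRNAs, with 49 and 37 reads in crushed nerve against 82 and 65 in sham nerve. Both lists were chosen with earlier results of these data known, so the p-values of their hosts are no independent support for a change. Stk39, the kinase SPAK that phosphorylates cation chloride cotransporters, had 8 and 9 reads in crushed nerve against 58 and 38 in sham nerve, and its log2 change was -2.26 ± 0.46 (adjusted p = 0.0558), which passed with DESeq2 (adjusted p = 0.0256). Over all its alternatives the adjusted p ran from 0.000409, without sham replicate 2, to 0.178, without crush replicate 2. Wnk1, the kinase that activates SPAK, had 16 and 14 reads in crushed nerve against 3 and 12 in sham nerve (log2 change 1.18 ± 0.72, adjusted p = 0.347). Slc12a2, the cotransporter NKCC1 on which SPAK acts (named after its values were seen), had 0 and 4 reads in crushed nerve and none in sham nerve. In the reported edgeR fit neither of the 2 tested regulators passed. Stk39 alone set the direction of the sum, since without it the regulators had 41 and 28 reads in crushed nerve against 24 and 27 in sham nerve.

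The remaining 51 hosts had 2 to 10 reads each over the 4 libraries, too few for a comparison. Counts at this depth also varied between replicates. In 12 of 49 cases in which a host of the set had at least 5 reads in a library, the other replicate of that group was at 0 (24.5%), and over all hosts this held in 289 of 1605 (18.0%). With at least 8 reads it held in 3 of 27 cases of the set (11.1%) and 60 of 891 over all hosts (6.73%).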

How the data were processed

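RNA was extracted with RNeasy mini columns and sequenced from both ends after VAHTS library preparation, per the labels' protocols. CASAVA 1.8, BWA, edgeR and the build Rnor_6.0 are listed, without roles, in the submitters' processing notes; which circRNA caller was used is not stated there or in the labels. The authors deposited junction read counts per circRNA, and beside them the SRPBM signal, per the file headers, without the total used for scaling.

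Counts were summed per host gene over circRNAs with 1 host (4207 of 4942). Hosts and circRNAs with at least 5 reads in at least 2 libraries were tested with edgeR 4.0.16 (quasi-likelihood, TMM, two-sided, Benjamini-Hochberg) in R 4.3.3, with DESeq2 1.42.0 as an alternative. The SE given for a log2 change in edgeR is its absolute value divided by the square root of the test's F statistic. It thus restates that test and is no separate estimate of error. The tests were tried on simulated counts. The named hosts are those tested, the 20 with the most reads (ties kept, 21) and those called in both libraries of 1 group only, 30 in all, and hosts of the 2 further lists if tested. A few genes are counted in the totals but not reported here by name. Members and lists were chosen with earlier results of these data known. Of the 81 symbols, 80 matched RefSeq (GRCr8, names only) and 1 a synonym. Deviations of same-numbered libraries were close to uncorrelated (r = -0.055 over 434 hosts). With 2 libraries a group and low counts this cannot exclude that the replicate numbers mark a pairing or a shared batch.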

Additional observations from a re-analysis of the deposited data

How the results depend on the processing

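No tested transporter or channel host passed under any of the 13 alternatives, and Slc7a11, untested in the reported fit, was the 1 host called when no filter on low counts was used (1.16% of all hosts were called higher there). Without 1 library, 0 to 1 circRNAs of the set passed as higher and 0 as lower, the 1 being that of Slc25a16 without sham replicate 1, where 19.4% of all tested circRNAs were called higher. The median log2 change of the hosts was -0.60 with library totals from the SRPBM constants (which moved the median of all hosts from 0.11 to -0.30), 0.047 with at least 2 reads in 2 libraries, -0.50 with no filter, and -0.59 to 0.074 without 1 library. The share difference, 0.23 percentage points, was 0.36 over circRNAs called in at least 2 libraries and 0.11 to 0.35 without 1 library. The 43719-base Atp9b circle had a log2 change of -0.26 with SRPBM totals, -0.032 with sums of junction reads and -0.33 to 0.56 without 1 library. Directions also turned without 1 library for the hosts Slc16a10 (-0.039 to 1.45), Abca1 (-0.59 to 0.45), Trpm7 (-1.21 to 0.28) and Slc38a6 (-0.52 to 1.67), and for the circRNAs of Slc16a10 (-0.11 to 1.42), Trpm7 (-1.25 to 0.25) and Ano4 (-1.03 to 0.054). The hosts Trpm7, Slc38a6 and Ano4 and the circRNAs of Trpm7 and Ano4 were tested in only 2 of the 4 fits without 1 library. In the other fits they fell below the read minimum. Without a turn of sign, the log2 change without 1 library ran from 0.46 to 1.82 for Atp9b, -0.77 to -0.079 for Slc38a1, -1.38 to -0.46 for Abce1 and -1.27 to -0.14 for Ano4. The cause was not tested. With the replicate number as a block, 0 hosts and 0 circRNAs of the set passed, and the median log2 change was -0.18. Library sizes from all circRNAs, an alternative chosen after seeing the data, called 0 hosts of the set. Depth limits these results, since 69 of the 81 hosts were below the read minimum.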

Other observations

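One intergenic circRNA overlapped a circle of the set on the same strand. It lies on chromosome 3, 118613723 to 118647639, and overlaps that of the flippase gene Atp8b4, and had 0 and 2 reads after crush and none after sham.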
